A study of Mus musculus with 2 samples.

Results

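The 10 genes described here protect cells from oxidants and reactive metals: Hmox1, Nqo1, Gclc, Gclm, Gpx3, Srxn1, Txnrd1, Sod3, Mt1 and Mt2. They were chosen by name, and every probe for them that is not a control spot was found through its RefSeq transcript accession, which gave 11 probes of the 55674 on the array, 2 of them for Hmox1 and 1 for each of the other genes. The accessions were NM_010442 for Hmox1, NM_008706 for Nqo1, NM_010295 for Gclc, NM_008129 for Gclm, NM_008161 for Gpx3, NM_029688 for Srxn1, NM_001042523 for Txnrd1, NM_011435 for Sod3, NM_013602 for Mt1 and NM_008630 for Mt2. In all, 20658 named genes had a probe, and 15260 of them were well above background on both arrays, among them all 10 of these genes. Ovaries from mice aged 2 weeks were cut lengthwise into 2 matching pieces, which the paper did to limit error from using different ovaries. The pieces were kept in organ culture for 3 days with agonists of the tachykinin (TK) receptors or with antagonists, each ligand at 1 μM. Whether the 2 groups hold pieces of the same ovaries is not given in the sources used here. The agonists were [Sar9, Met(O2)11]-SP for TACR1, GR-64349 for TACR2 and a succinylated substance P analog for TACR3, and the antagonists of TACR2 and TACR3 were GR-94800 and SB218795, beside one for TACR1. The antagonist group received all of its ligands, and whether the agonists were given together is not given in the sources used here. Total RNA of each group was hybridized to 1 single-color array, so there are 2 arrays, no replicate and no statistical test. The strain and the number of ovaries behind each RNA are not given in the sources used here, and ovaries cultured without a ligand were not analysed here. Both groups share the organ culture, so neither shows the genes in an ovary that was not cultured.

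Most of these genes answer to one of a pair of sensors. The transcription factor NRF2 (gene Nfe2l2) is held back by KEAP1 until oxidants or electrophiles modify KEAP1, and it then binds antioxidant response elements in the promoters of genes such as Nqo1, Hmox1, Gclc, Gclm, Srxn1 and Txnrd1. MTF1 senses zinc and binds metal response elements in the promoters of Mt1 and Mt2, whose products bind zinc, copper and cadmium through their many cysteines and are also induced by glucocorticoids and by cytokine signals. Gpx3 and Sod3 encode enzymes that are secreted and act outside the cell. In the ovary, granulosa cells and the oocyte depend on glutathione and on antioxidant enzymes during follicle growth.

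Promoter sequences are shown for the gene that differed most between the arrays (Gpx3), for 3 of the 4 thiol enzyme genes that were lower with the agonists (Gclm, Srxn1 and Txnrd1) and for both metallothioneins. Each sequence covers the 250 bases before a transcription start in RefSeq on GRCm38.p6, written 5′ to 3′ on the strand of the gene. RefSeq promoters were matched for 7 of the 10 genes, with 3 starts for Txnrd1, of which the second is shown. The windows of the other Txnrd1 starts held no match to the letters marked here. Which of these starts the probed transcript has was not examined. Hmox1, Gclc and Sod3 were not matched. Capitals mark matches on either strand to the antioxidant response element core TGACNNNGC, to the metal response element core TGCGCNC or TGCACNC, or to TGAGTCA or TGACTCA, the heptamer bound by AP-1 and shared with many elements of NRF2 and its MAF partners. The heptamer was added after the sequences were seen.
Gpx3 promoter, chr11:54902604-54902853, plus strand: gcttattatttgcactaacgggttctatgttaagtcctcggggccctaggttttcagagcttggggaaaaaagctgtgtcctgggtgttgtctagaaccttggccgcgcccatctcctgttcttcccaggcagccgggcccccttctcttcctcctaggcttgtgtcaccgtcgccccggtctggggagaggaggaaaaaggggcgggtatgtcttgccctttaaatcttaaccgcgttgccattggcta
Gclm promoter, chr3:122245307-122245556, plus strand: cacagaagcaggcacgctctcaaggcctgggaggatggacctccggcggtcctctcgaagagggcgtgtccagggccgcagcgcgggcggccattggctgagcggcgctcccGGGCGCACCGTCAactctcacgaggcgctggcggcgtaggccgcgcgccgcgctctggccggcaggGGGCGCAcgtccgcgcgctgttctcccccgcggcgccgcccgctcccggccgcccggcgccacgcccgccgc
Srxn1 promoter, chr2:152105274-152105523, plus strand: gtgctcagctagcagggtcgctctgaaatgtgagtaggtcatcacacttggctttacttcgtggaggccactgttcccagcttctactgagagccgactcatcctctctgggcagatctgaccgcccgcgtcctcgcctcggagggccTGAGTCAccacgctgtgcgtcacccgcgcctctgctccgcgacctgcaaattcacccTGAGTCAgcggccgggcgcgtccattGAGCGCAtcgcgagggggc
Txnrd1 promoter, chr10:82858956-82859205, plus strand: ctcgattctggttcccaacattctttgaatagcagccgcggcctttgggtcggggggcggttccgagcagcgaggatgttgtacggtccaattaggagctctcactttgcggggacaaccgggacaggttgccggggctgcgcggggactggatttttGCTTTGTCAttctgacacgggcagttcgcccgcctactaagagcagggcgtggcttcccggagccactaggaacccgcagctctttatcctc
Mt1 promoter, chr8:94178839-94179088, plus strand: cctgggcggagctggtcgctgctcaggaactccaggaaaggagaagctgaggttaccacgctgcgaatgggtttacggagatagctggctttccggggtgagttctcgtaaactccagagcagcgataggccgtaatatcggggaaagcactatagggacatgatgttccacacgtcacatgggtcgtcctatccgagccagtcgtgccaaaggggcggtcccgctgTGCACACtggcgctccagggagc
Mt2 promoter, chr8:94172368-94172617, plus strand: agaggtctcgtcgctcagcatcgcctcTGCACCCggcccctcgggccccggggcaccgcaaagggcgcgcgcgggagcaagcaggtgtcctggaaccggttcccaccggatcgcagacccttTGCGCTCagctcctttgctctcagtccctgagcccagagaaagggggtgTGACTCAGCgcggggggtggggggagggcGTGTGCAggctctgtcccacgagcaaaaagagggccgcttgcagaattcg
The antioxidant core was found once in each of the windows of Gclm, Txnrd1 (second start) and Mt2, and in 10.2% of all 32851 RefSeq promoter windows of this length. The metal core was found 3 times in Mt2, 2 times in Gclm and once each in Mt1 and Srxn1. Of all windows 21.4% held it at least once. The heptamer was found 2 times in Srxn1 and once in Mt2, and 4.46% of all windows held it. In Srxn1 the TGAGTCA nearer the start is followed by GC. It has G where the antioxidant core searched here has C, so it was not counted as that core. In Mt2 the heptamer lies inside the antioxidant core, and in Gclm the antioxidant core overlaps a metal core, so that these capitals run together. The windows of Gpx3, Nqo1 and the other 2 starts of Txnrd1 held none of these letters. The windows of Mt2 and Mt1 lie 6471 bases apart on chromosome 8 and on the same strand. A RefSeq start need not be the one used in these ovaries, and elements outside the window are not seen.

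The secreted glutathione peroxidase Gpx3 was 2.36-fold higher with the agonists, and it was the only one of the 10 genes that differed by at least 2-fold. The thiol enzymes Gclc, Gclm, Srxn1 and Txnrd1 were each lower with the agonists, by 1.21-fold to 1.29-fold. Without scaling and with spike-in scaling, however, all 4 were within the error of their spots, and with the latter Gclc was just above 0. Hmox1 and Sod3 were higher by 1.32-fold and 1.20-fold. Nqo1, Mt1 and Mt2 differed by less than the error of their spots on the 75th percentile scale, but without scaling Nqo1 (0.40) and Mt2 (0.28) were higher by more than it. At least 2-fold higher were 1 of the 10 genes and 4.01% of all genes tested, and at least 2-fold lower were 0 of the 10 and 0.57% of all genes. At 1.5-fold on the 75th percentile scale the counts were again 1 higher and 0 lower, against 9.26% and 4.28% of all genes. Without scaling Hmox1 was also past 1.5-fold (1.56-fold). The median log2 ratio of the 10 genes was -0.07, against -0.10 for all genes.

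These ratios compare processed signals, the linear spot intensities that the authors' image analysis software gives after it subtracts the background. Each signal was divided by the array's 75th percentile, 672 for the agonists and 569 for the antagonists. A log2 ratio is agonists over antagonists on this scale. The software gives each signal an error, which makes 0.20 to 0.21 on the log2 ratio of these genes. Differences between ovaries or cultures are not part of that error. Between spots of one probe the spread was also measured: for 284 probes printed 10 times, with every spot clear of background, the SD of the log2 ratio was 0.07 in the median, below the software's error, and 0.26 at the 95th percentile, above it. Each probe of the 10 genes was printed as 1 spot. None of these spots was marked as an outlier or as saturated. The scaling sets the zero of every ratio. Without scaling the median log2 ratio of all genes was 0.15 instead of -0.10, and spike-in scaling made it 0.18, so ratios are also given below as differences from the median of all genes.

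**Figure D1:**
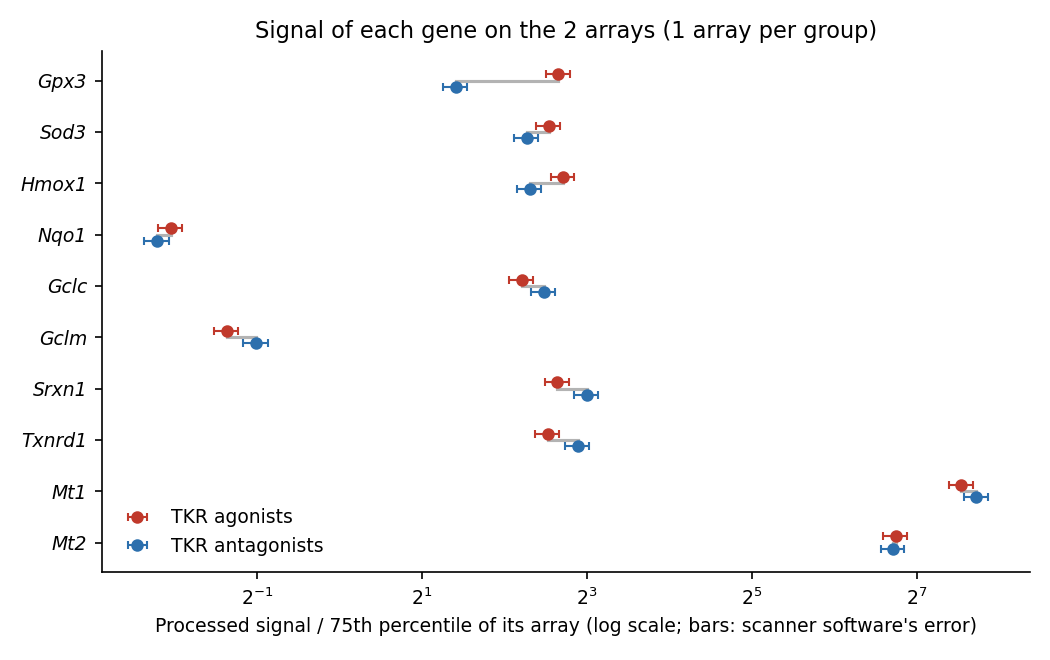
Processed signal of each gene divided by the 75th percentile of its array, on a log2 axis, for TKR agonists (red) and TKR antagonists (blue), 1 array each. Bars are the software's error of the spot. The points of Gpx3 lie far apart and those of Mt1 and Mt2 overlap within their bars; probes differ in brightness, so levels of different genes cannot be compared.

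Gpx3 and Sod3 encode extracellular enzymes: glutathione peroxidase 3 removes hydrogen peroxide and lipid peroxides in plasma and other body fluids, and superoxide dismutase 3 removes superoxide in the matrix around cells. The processed signal of Gpx3 was 4226 ± 423 with agonists and 1512 ± 151 with antagonists (each ± the software's error, 1 spot). The agonist signal was the higher by far more than both errors. Its log2 ratio was 1.24 ± 0.20, or 1.34 above the median of all genes, and 2.60% of all genes had a ratio at least as high. For Sod3 the agonist signal was 3898 ± 390 and the antagonist signal 2739 ± 274. Its log2 ratio was 0.27 ± 0.20, which is 0.36 above the median of all genes. Both secreted enzymes thus had the higher signal on the agonist array, but by unequal amounts: the log2 ratio of Gpx3 was 0.97 ± 0.29 above that of Sod3. This difference does not depend on the factor by which an array is scaled.

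The intracellular relatives of these enzymes did not have such ratios. The log2 ratio of Gpx1, the cytosolic glutathione peroxidase, was 0.14, and that of Gpx4, which removes lipid peroxides in membranes, was -0.21. Gpx3 therefore lay 1.10 ± 0.29 above Gpx1 and 1.45 ± 0.29 above Gpx4. For the superoxide dismutases of the cytosol and the mitochondria, Sod1 and Sod2, the log2 ratios were -0.17 and -0.28. Sod3 lay 0.44 ± 0.29 above Sod1 and 0.55 ± 0.29 above Sod2. The errors combine the software's errors of the 4 spots in each pair.

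**Figure D2:**
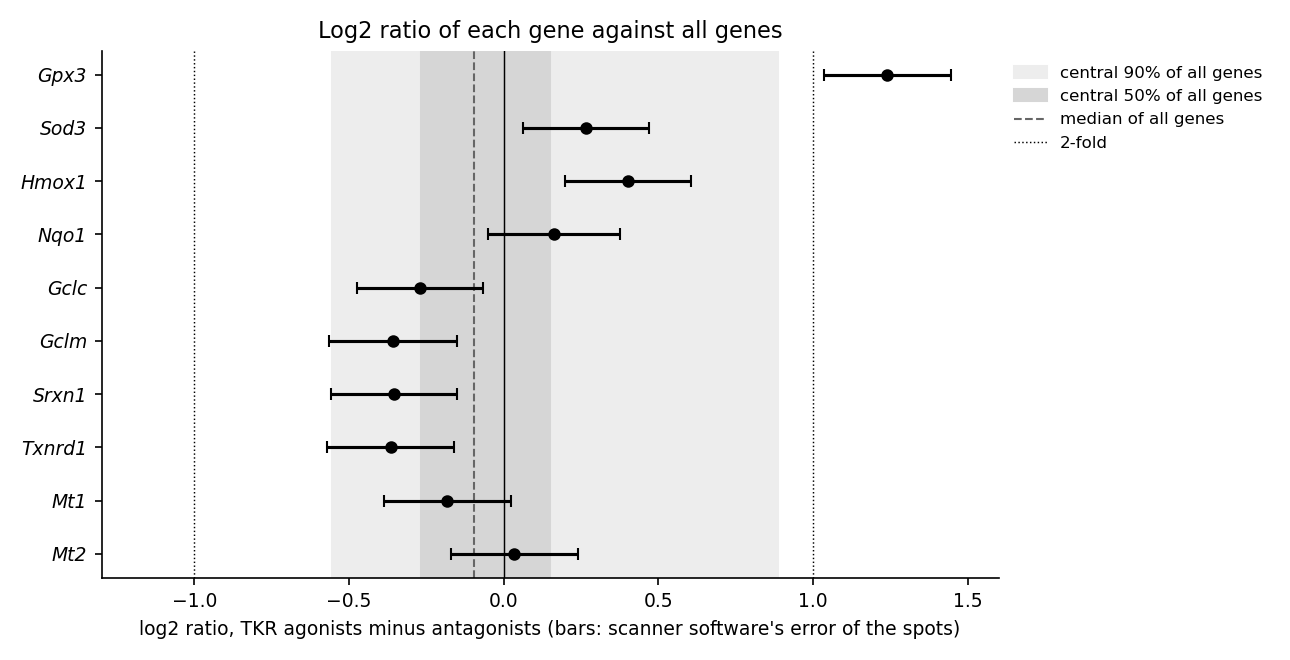
Log2 ratio (TKR agonists minus antagonists) of the 10 genes; bars are the software's error of the spots. Light and dark gray bands span the 5th to 95th and the 25th to 75th percentile of all genes, and the dashed line is their median of -0.10. Gpx3, at 1.24, lies outside the light band, and the other 9 genes lie inside it.

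Gclc and Gclm encode the catalytic and the modifier subunit of glutamate-cysteine ligase, which makes the first step of glutathione synthesis. The signal of Gclc was 3106 ± 311 with agonists and 3167 ± 317 with antagonists. After scaling this was a log2 ratio of -0.27 ± 0.20. The signal of Gclm was 260.4 ± 26.3 and 282.2 ± 28.5 in the same order. After scaling its log2 ratio was -0.36 ± 0.21. The unscaled signals of both subunits were thus close, and most of their ratio came from the scaling. The subunits differed from each other by 0.09 ± 0.29, within their error. Relative to the median of all genes they were 0.17 and 0.26 lower.

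Srxn1 encodes sulfiredoxin, which repairs overoxidized peroxiredoxins, and Txnrd1 encodes the cytosolic thioredoxin reductase, a selenoprotein that keeps thioredoxin reduced. The signal of Srxn1 was 4200 ± 420 with agonists and 4543 ± 454 with antagonists, and its log2 ratio was -0.35 ± 0.20. For Txnrd1 the agonist signal was 3874 ± 387 and the antagonist signal 4222 ± 422, and the log2 ratio was -0.37 ± 0.20. Both were lower on the agonist array and lay 0.26 and 0.27 below the median of all genes. The ratio of Txnrd1 lay 0.56 ± 0.29 below that of Txnrd2, the mitochondrial thioredoxin reductase, at 0.19. The log2 ratios of Gclc, Gclm, Srxn1 and Txnrd1 spanned 0.10, from -0.37 to -0.27. They are the lowest ratios of the 10 genes, so a narrow span follows in part from that grouping. It is also smaller than the error of a single ratio. Between 14.4% and 24.8% of all genes had a ratio as low as theirs, so each of these ratios is a common one on these arrays.

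Nqo1 encodes a quinone reductase and Hmox1 encodes heme oxygenase 1, which breaks down heme and is abundant in macrophages that clear red cells. The signal of Nqo1 was 162.6 ± 16.8 with agonists and 122.8 ± 13.1 with antagonists. Its log2 ratio of 0.16 ± 0.21 was within the error on this scale. Hmox1 had a signal of 4404 ± 440 with the agonists and 2820 ± 282 with the antagonists at the brighter of its probes, with a log2 ratio of 0.40 ± 0.20. The other Hmox1 probe, for the same transcript, had signals of 284.5 ± 28.7 and 184.5 ± 18.9 and a log2 ratio of 0.38 ± 0.21. The probes differed by less than their error although their signals are far apart. Hmox1 lay 0.50 above the median of all genes, and 13.3% of all genes had a ratio at least as high. Hmox2, the constitutive heme oxygenase, had a log2 ratio of 0.14, and Hmox1 lay 0.26 ± 0.29 above it, within the error. On this scale the targets of NRF2 among the 10 genes did not share a direction: Hmox1 was above 0 and Gclm below it, each by more than its error. Without scaling Gclm was within its error. Nqo1 lay 0.52 ± 0.30 above Gclm, but with normexp Nqo1 was at 0.03 and Gclm at -0.32.

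Mt1 and Mt2 encode the metallothioneins found in most tissues. The signal of Mt1 was 125136 ± 12514 with agonists and 120055 ± 12006 with antagonists, and its log2 ratio was -0.18 ± 0.20. The signal of Mt2 was 72299 ± 7230 with agonists and 59693 ± 5969 with antagonists, and its log2 ratio was 0.03 ± 0.20. On this scale neither ratio was larger than its error, and the ratio of Mt1 lay 0.22 ± 0.29 below that of Mt2, also within the error. These signals were below the saturation value of 778440, so the scanner's range did not limit them. The coding sequences of the metallothioneins are alike, and whether one probe also picks up the other transcript was not tested. Mt3, known from brain, and Mt4, known from stratified epithelium, were well above background on both arrays, with log2 ratios of -0.11 and 0.14.

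**Figure D3:**
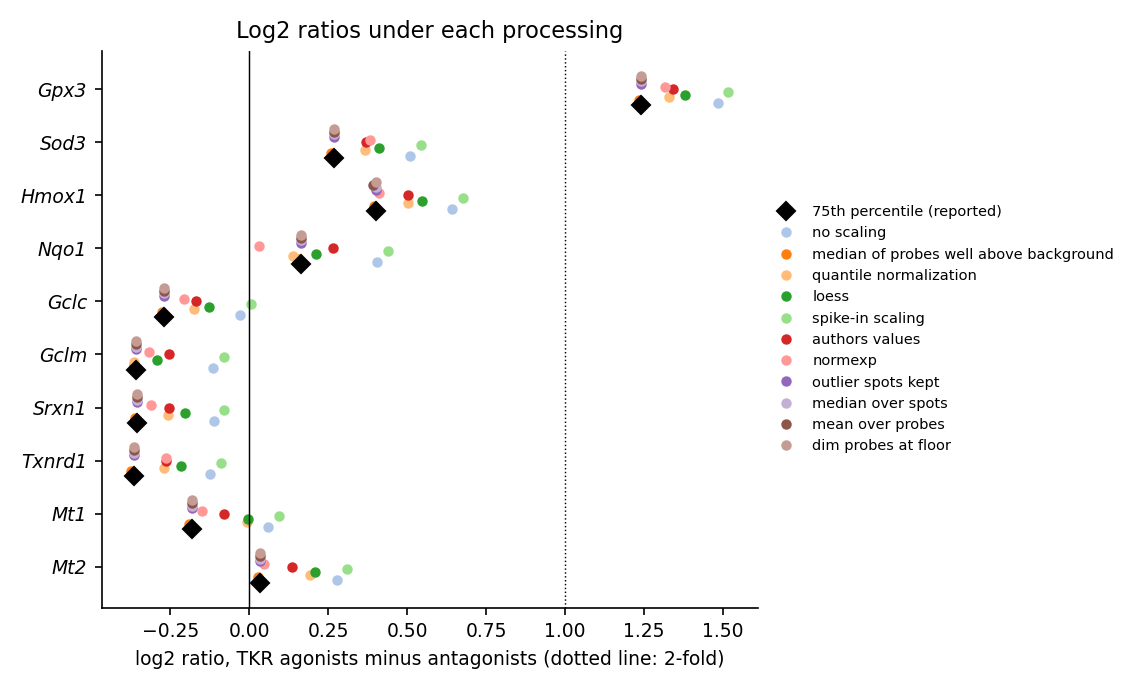
Log2 ratios (TKR agonists minus antagonists) of the 10 genes under the reported scaling (black diamonds) and 11 alternatives (colored points); the dotted line marks 2-fold. Gpx3 stays between 1.23 and 1.52, right of the dotted line in every setting, while the points of Gclc and Mt1 lie on both sides of 0.

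Of the 10 genes, 9 kept their side of the median of all genes, but most settings could hardly change it. No scaling, median scaling, spike-in scaling and the authors' values move all genes by a constant. Other summaries of spots and probes and dim probes at their floor changed only the ratio of Hmox1 among the 10, to 0.39. Quantile normalization, loess and normexp could change a side, and only Mt1 changed it, with quantile normalization. Over 11 alternatives, Gpx3, Hmox1, Sod3, Nqo1 and Mt2 were above the median of all genes in every setting, and Gclc, Gclm, Srxn1 and Txnrd1 were below it in every setting. Mt1 lay between 0.09 below and 0.04 above it. On the plain scale of the log2 ratio the sign of 2 genes depended on the scaling: Gclc was -0.27 with the 75th percentile and 0.01 with spike-in scaling, and Mt1 lay between -0.19 and 0.09. Hmox1 stayed between 0.39 and 0.68 and Sod3 between 0.26 and 0.54. The lower genes came closest to 0 with spike-in scaling, at -0.08 for Gclm, -0.08 for Srxn1 and -0.09 for Txnrd1.

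Around these 10 genes, 7 lists of other antioxidant, heme, NADPH and zinc genes held 102 genes, of which 99 had a probe and 94 were well above background on both arrays. At least 2-fold higher with the agonists were 6 of the 94 (6.38%, against 4.01% of all genes) and at least 2-fold lower were 0 (0.57% of all genes). Their median log2 ratio was -0.0018, and 55 of the 94 lay above the median of all genes. Among regulators of NRF2 and its other targets, 12 of 16 genes lay above the median of all genes, the list's median was 0.08 and none reached 2-fold. Nfe2l2 itself had a log2 ratio of -0.02, Keap1 one of -0.11 and Bach1, a repressor of Hmox1, one of 0.07, and each is within its error. The highest in this list were Osgin1, a growth inhibitor induced by oxidants (0.84), and Akr1b8, an aldo-keto reductase (0.66). The lowest were Mafk, a small MAF partner of NRF2 (-0.13), and Abcc4, an exporter of conjugates (-0.11). Gclc, Gclm, Srxn1 and Txnrd1 lay below every gene of this list, which holds regulators as well as targets. Some genes of the other lists, described below, had ratios as low as theirs. The gap therefore depends on how the lists were divided.

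In the glutathione list, 16 of 22 genes lay above the median of all genes and the list's median was 0.08, whereas Gclc and Gclm lay below it. Mgst2, a microsomal glutathione transferase, had a log2 ratio of 2.51 and Gsta2, a cytosolic one, a ratio of 1.94, and these were the 2 genes of the list past 2-fold. Near-identical members of the Gsta family may share signal with Gsta2. The lowest were Chac1, which degrades glutathione and is a target of the ATF4 stress response (-0.83), and Gss, glutathione synthetase (-0.47), which takes the step after glutamate-cysteine ligase. The cystine exchanger Slc7a11 (0.14) and the glutathione reductase Gsr (-0.15) had ratios within their errors.

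In the thioredoxin and peroxiredoxin list, 7 of 15 genes lay above the median of all genes and none reached 2-fold. The lowest were Txnrd3 (-0.55), a thioredoxin reductase known from testis, and Prdx6 (-0.39), and the highest were Txnip (0.37), an inhibitor of thioredoxin, and Txnrd2 (0.19). Txn1, the substrate of Txnrd1, had a log2 ratio of -0.29. In the superoxide and hydrogen peroxide list, 4 of 8 genes lay above the median of all genes. Xdh, xanthine dehydrogenase, which can produce superoxide, was the one past 2-fold (1.20), followed by Nox4 (0.52), and Cat, catalase (-0.42), and Sod2 (-0.28) were the lowest. Cybb and Ncf1 of the phagocyte oxidase passed the background limit on the agonist array alone, on 1 spot each. The signal of Ncf1 was 74.8 with agonists and 20.6 with antagonists, a scaled fold of 3.08 (log2 ratio 1.62 ± 0.38). This is an estimate with a dim antagonist spot and not a lower bound. Cybb was 1.15-fold higher when its antagonist signal was raised to 19.9, the lowest signal well above background on that array. Its own log2 ratio of 0.28 ± 0.44 was within the error.

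Among heme and iron genes, 6 of 13 lay above the median of all genes. Hp, the hemoglobin-binding plasma protein haptoglobin, was past 2-fold (1.32), followed by Blvra, a biliverdin reductase that acts after heme oxygenase (0.14). Ftl1 (-0.46) and Tfrc (-0.34), the ferritin light chain and the transferrin receptor, were the lowest; the other probes of Tfrc reached 0.21. Of 7 genes in the NADPH supply list, 3 lay above the median of all genes. The list ran from Taldo1 (-0.44) and Idh2 (-0.14) to G6pdx (0.02) and Me1 (0.21). In the zinc list 7 of 13 genes lay above the median of all genes. The zinc importers Slc39a8 (1.96) and Slc39a4 (1.59) were past 2-fold, whereas Mtf1 (-0.24; another probe gave 0.11) and the zinc exporter Slc30a1 (-0.35), a known MTF1 target like Mt1 and Mt2, were not, and Slc30a5 had -0.35 as well. The ratios of Mt1 (-0.18), Mt2 (0.03), Mtf1 and Slc30a1 all lay between the 5th and 95th percentile of all genes, -0.55 and 0.89. They were not alike, however: Slc30a1 was below 0 by more than its error of 0.20, whereas Mt1 and Mt2 were within theirs.

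**Figure D4:**
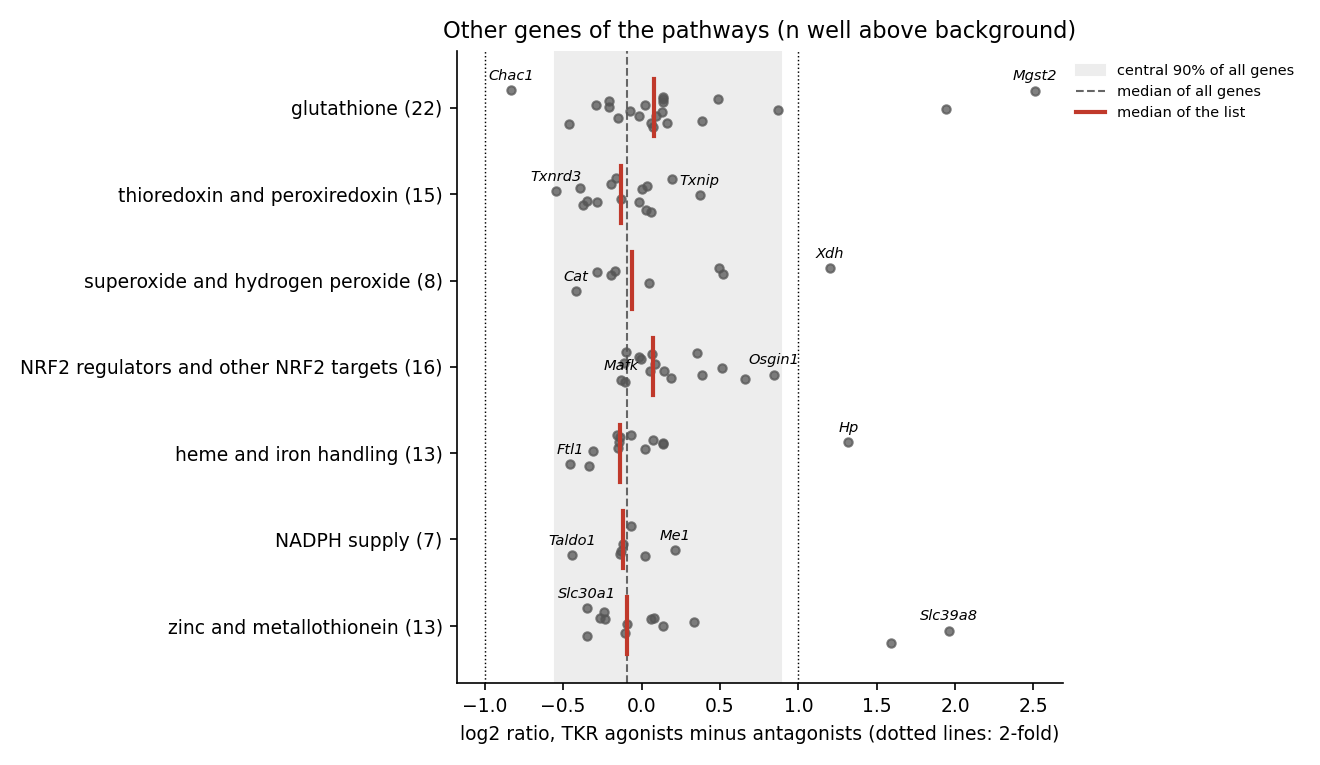
Log2 ratios (TKR agonists minus antagonists) of the other genes in the 7 pathway lists; each point is a gene well above background on both arrays, with their number in parentheses, and red bars are list medians. The list medians lie between -0.14 and 0.08, close to the dashed median of all genes, with single genes such as Mgst2 at 2.51 far to the right.

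Markers of several cell types also differed between the arrays. In bulk tissue, a larger share of a cell type and more RNA per cell cannot be told apart. Granulosa, oocyte and stroma markers were well above background on both arrays, and of the theca markers Lhcgr was on neither. All 9 macrophage markers with a probe had a positive log2 ratio (median 1.18, from 0.15 for Csf1r to 2.61 for Cx3cr1), although another Csf1r probe gave -0.09. Their summed scaled signal was 16.96 for agonists and 10.97 for antagonists. In every list the sum takes all markers with a probe, also those not well above background, so it can cover more genes than the median. Probes differ in brightness, and the brightest weigh most in a sum. Among macrophage markers this was Csf1r, with processed signals of 5607 and 4285. All 8 surface epithelium markers were positive as well (median 1.01, from 0.23 for Wt1 to 1.40 for Krt19), with sums of 69.1 and 44.7. The 6 smooth muscle markers well above background on both arrays had a median of 0.71, from Mylk (0.20) to Actg2 (1.83). The smooth muscle sums, which also include Des, were 39.3 and 24.1. Of 6 endothelial markers well above background on both arrays, 5 were positive. Their median was 0.68, from Kdr (-0.27, with 0.38 at another probe) to Tie1 (1.62). The endothelial sums, which also include Tek, were 61.5 and 54.5. Stroma markers ran from Lum (-0.30) to Pdgfra (0.60) with a median of 0.38, with sums of 403 and 337. Granulosa markers had a median of -0.47, from Inhbb (-1.17) to Amhr2 (0.38), with sums of 175 and 210. Oocyte markers ran from Zp3 (-0.13) to Figla (0.59) with a median of 0.11, with sums of 244 and 251, and theca markers from Cyp17a1 (-0.41) to Cyp11a1 (0.79) with a median of -0.10, with sums of 85.1 and 84.1. Erythrocyte markers, with 3 of 6 well above background on both arrays, ran from Ermap (-0.19) to Slc4a1 (0.25) with a median of -0.15, with sums of 1.71 and 1.89. Of the adipocyte markers, Adipoq and Lep were not well above background on either array, and Fabp4 (3.82), which is also expressed by endothelium and macrophages, stood at the upper end and Retn (-0.79) at the lower end. The adipocyte sums were 1.31 and 0.301, and the median over 3 genes was 0.59. The ratio of each of the 10 genes lay within the ranges of at least 3 of these lists. These ranges are wide, and the share of all genes inside them was not counted. Lying inside them therefore does not link a gene to a cell type. The part of these cell types in the ratios of the 10 genes was not tested.

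**Figure D5:**
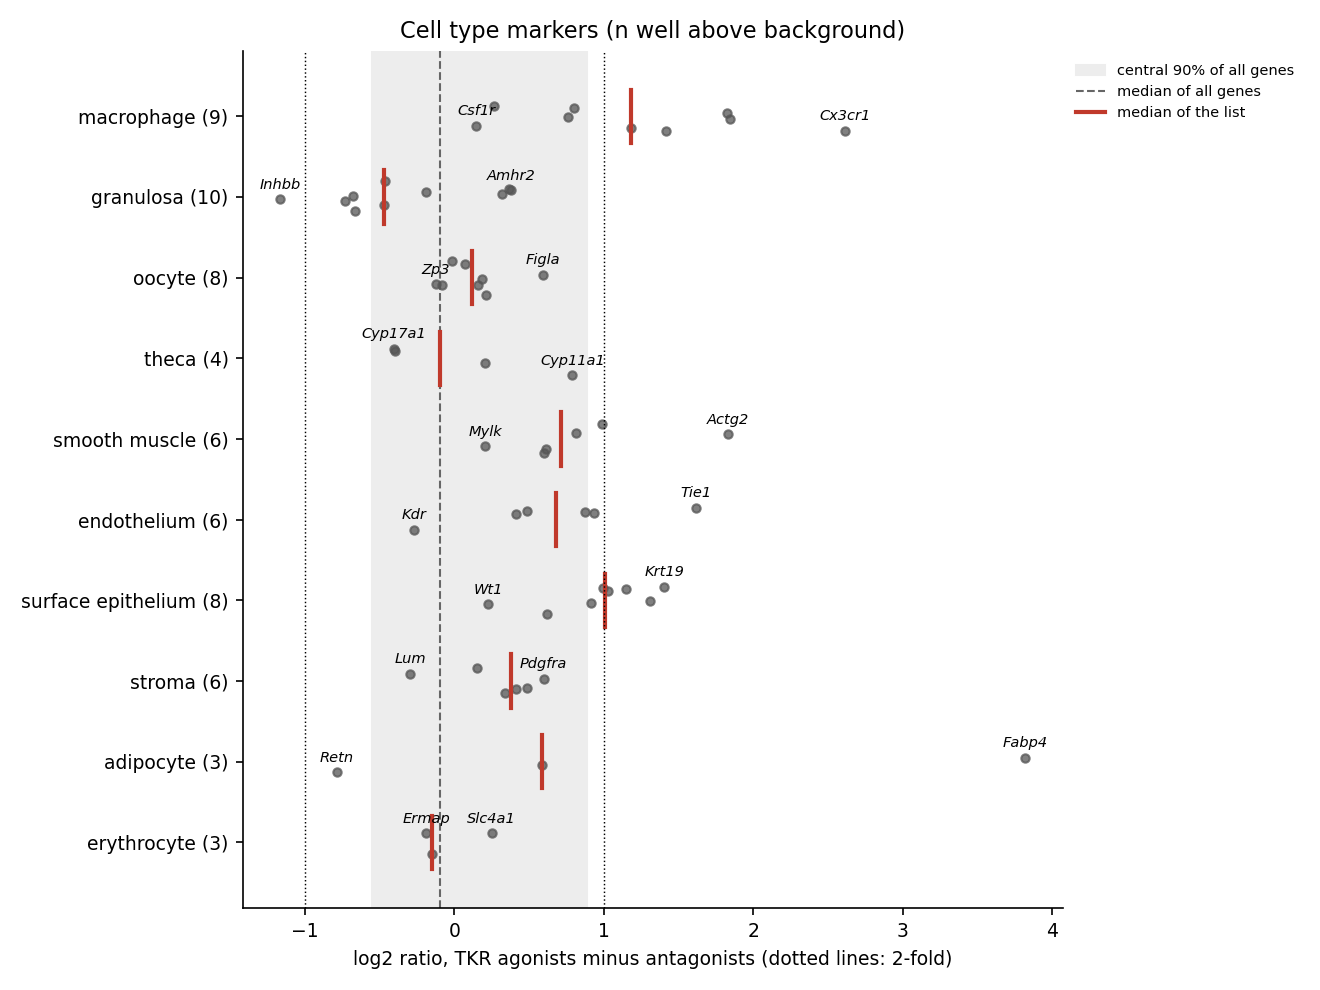
Log2 ratios (TKR agonists minus antagonists) of cell type markers; each point is a gene well above background on both arrays, with their number in parentheses, and red bars are list medians. All macrophage and surface epithelium markers lie right of 0, and the granulosa median of -0.47 is the lowest of the 10 lists.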

How the data were processed

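Total RNA of cultured ovaries was measured on 2 single-color Agilent SurePrint G3 mouse arrays, 1 per group, on the same slide. The authors deposited spot intensities from Agilent Feature Extraction (named in the submitters' processing notes; version 10.10.1.1 per the file headers), on a linear scale after background subtraction, without scaling between arrays. Their deposited summary intensities are these signals multiplied by 1 factor per array (1.99 and 2.19). Control spots and outlier spots were left out, the log2 of the array's 75th percentile was subtracted from each log2 signal, and spots of a probe were averaged. A probe counted as well above background when more than 50% of its spots carried the software's mark. Probes were named through RefSeq transcripts of GRCm38.p6, used for names only: 27230 probes had a symbol, and 453 of 26531 with an NM accession had none. The probe with the highest mean signal represented a gene; 3781 genes had several well above background on both arrays. Each group has 1 array, so no test was made, and the number of arrays limits the precision.

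The 10 genes were chosen by name, and the genes and lists were chosen with earlier results of these data known. In each pathway list the 2 highest and 2 lowest genes and those at least 2-fold apart are named; in each cell type list those at both ends. Other genes named are relatives or partners of the 10, chosen after their values were seen. No genes of like pattern are named, since 2 arrays give each gene a single ratio. Alternatives were other scalings (none, median, quantile, loess with span 0.3, spike-in), the authors' values, normexp on median spot signals (offset 50), other summaries of spots and probes, dim probes at their floor and a 1.5-fold threshold. On simulated arrays with 200 probes changed by a log2 of 2 and noise of SD 0.15, all 200 passed 2-fold. This checks the arithmetic only and says nothing about ratios as small as those of most of the 10 genes. Python 3.11.15, numpy 2.4.6, pandas 2.3.3, statsmodels 0.14.6, R 4.3.3 and limma 3.58.1 were used.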

Additional observations from a re-analysis of the deposited data

How the results depend on the processing

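No paired analysis was possible because there is a single array per group and nothing was tested. The median log2 ratio of the 10 genes, -0.07, became 0.17 without scaling and 0.20 when scaled on spike-ins, which move all genes by a constant. The counts of 1 gene at least 2-fold higher and 0 lower were the same in all 11 alternatives and with the 1.5-fold threshold. Of 110 values of the 10 genes under the alternatives, 90 moved by less than the error of the spot, 19 moved by more, all with no scaling or spike-in scaling, and 1 changed sign from a value beyond its error: Gclc, to 0.0061 with spike-in scaling. Of 187 list medians, 151 moved by less than that error and 36 by more. Which ratios passed the error of their spot depended on the scaling. Nqo1, 0.16 with an error of 0.21, was 0.03 with normexp, 0.26 with the authors' values, 0.40 without scaling and 0.44 with spike-ins. Mt2, 0.03 with an error of 0.20, was 0.21 with loess, 0.28 without scaling and 0.31 with spike-ins. Gclc, Gclm, Srxn1 and Txnrd1 were within their errors without scaling and with spike-ins, and Gclc also with quantile normalization (-0.17), loess (-0.13) and the authors' values (-0.17).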
